A study of Caenorhabditis elegans with 2 samples.

Results

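The genes tasp-1, hsr-9, wip-1, mtcu-2 and eel-1 are 5 of 19973 protein-coding genes on the nuclear chromosomes of Caenorhabditis elegans, and each holds one of the highest peaks of ARID-1 binding near a gene start. They were selected on the signal of these peaks, so their heights are given as a description with no test. A promoter peak is one whose summit, the position of its maximum, lies no more than 500 bp from where the annotation places the 5' end of a protein-coding gene, and the 5 peaks are 5 of 944 such nuclear peaks. Binding was measured by chromatin immunoprecipitation and sequencing (ChIP-seq) in strain RW12194, in which CRISPR placed a TY1::EGFP::3xFLAG tag in arid-1 (allele st12194, on V). Whole worms were starved as L1 larvae after bleaching, grown to the L4 stage at 47 hours, and an antibody against GFP was used to precipitate sonicated chromatin. There are 2 biological replicates of this single group, so the design holds no comparison between conditions, and control values were not used. Since whole animals were used, the cells in which binding took place cannot be told apart.

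ARID-1 is a nuclear protein named for its AT-rich interaction domain, a DNA-binding fold found in several chromatin regulators. The 5 genes encode proteins of unrelated function. tasp-1 encodes the worm homolog of taspase, a protease that in mammals cleaves the histone methyltransferase MLL and the general transcription factor TFIIA. hsr-9 encodes a homolog of the DNA damage response protein 53BP1. wip-1 encodes a homolog of the WASP-interacting protein, which takes part in actin assembly. mtcu-2 encodes a homolog of the enzyme MTO1, which modifies the wobble uridine of mitochondrial transfer RNAs. eel-1 encodes a HECT-type ubiquitin ligase related to mammalian HUWE1. In worms the first stretch of many transcripts is replaced by a spliced leader (trans-splicing), and the true start of transcription can then lie upstream of the annotated 5' end.

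The DNA under 4 of the peaks is shown to let their repeated words be compared, which are inverted at tasp-1 and wip-1 and direct at mtcu-2 and eel-1. A repeat of 8 bases, as at wip-1, is common at promoter peaks, and the sequence of hsr-9 is not shown. Sequences come from the RefSeq genome of the WBcel235 assembly (ce11) and are given 5' to 3' on the strand of the gene. Capitals mark the repeated word. The tasp-1 stretch is chrIII:10759125-10759306 on the plus strand and runs from the left edge of the peak to the last base before the 5' end. The stretches of wip-1 (chrIII:5018245-5018395, plus strand), mtcu-2 (chrII:10033608-10033769, minus strand) and eel-1 (chrIV:3050396-3050560, minus strand) are the whole peaks.
tasp-1: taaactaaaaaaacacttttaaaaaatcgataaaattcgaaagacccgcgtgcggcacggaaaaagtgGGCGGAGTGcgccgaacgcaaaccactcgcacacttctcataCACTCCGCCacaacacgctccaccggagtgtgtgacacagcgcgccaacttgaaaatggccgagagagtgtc
wip-1: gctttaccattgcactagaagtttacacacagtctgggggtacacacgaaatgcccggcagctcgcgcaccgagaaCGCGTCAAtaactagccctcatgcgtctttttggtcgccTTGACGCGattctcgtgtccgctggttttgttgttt
mtcu-2: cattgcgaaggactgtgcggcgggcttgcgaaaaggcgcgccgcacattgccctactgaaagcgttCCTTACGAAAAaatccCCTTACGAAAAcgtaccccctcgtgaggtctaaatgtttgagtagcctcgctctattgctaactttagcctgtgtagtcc
eel-1: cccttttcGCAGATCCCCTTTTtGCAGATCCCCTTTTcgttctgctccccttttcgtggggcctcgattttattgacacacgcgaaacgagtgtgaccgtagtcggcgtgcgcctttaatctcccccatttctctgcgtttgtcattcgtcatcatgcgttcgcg

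In the tasp-1 sequence the 9-base word occurs once on each strand, as an inverted pair, and an inverted pair of 8 bases is present in the wip-1 sequence. In mtcu-2 an 11-base word occurs 2 times in the same direction, and in eel-1 a word of 14 bases occurs 2 times in the same direction, with a single base between the copies. Repeats were measured from 100 bp before to 100 bp after each summit as the longest word that occurs again on either strand, which was 9 bp at tasp-1, 8 bp at hsr-9, 8 bp at wip-1, 11 bp at mtcu-2 and 14 bp at eel-1. The median over all 944 promoter peaks was 8 bp, with quartiles of 7 and 9 bp. A repeat of at least 11 bp was found at 106 promoter peaks (11.2%), and one of at least 14 bp at 34 (3.60%). The shorter repeats of tasp-1, hsr-9 and wip-1 are thus of ordinary length for these windows. Those of mtcu-2 and eel-1 are above the upper quartile, in a range of 6 to 40 bp. The same window at eel-1 also held 4 copies of the 8-base word CCCCTTTT, 2 of which lie inside the 14-base repeat.

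The 5 summits lay at different places relative to the genes. The tasp-1 gene (WBGene00010480) lies at III:10759307-10763021 on the plus strand, and its peak at 10759125-10759359 had its summit at 10759244, which is 63 bp upstream of the 5' end. This was the nearest of the 5 summits, and 53 bases of the peak lay past the 5' end. The 3 annotated transcripts of tasp-1 start 63, 141 and 425 bp from the summit, and RefSeq places the 5' end of the gene at the middle one of these. Its upstream neighbour K01G5.10 lies on the other strand with its 5' end 722 bp from the summit, outside the window.

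The wip-1 gene (WBGene00020094, III:5018639-5021120, plus strand) had its summit at 5018318, which is 321 bp upstream. The divergent neighbour larp-1, which encodes a La-related RNA-binding protein, has its 5' end 668 bp from this summit, so the peak lay between the genes and nearer to wip-1. The eel-1 gene is the longest of the 5, with 17392 bp (WBGene00022069, IV:3032713-3050104, minus strand), and its summit at 3050474 was 370 bp upstream of the first of its 8 transcripts. 6 of those 8 transcripts start 503 bp from the summit. The next gene upstream of eel-1, ivph-3, has its 5' end 3254 bp away on the other strand, so eel-1 was the nearest gene start by far.

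At mtcu-2 the peak lay within another gene. mtcu-2 (WBGene00009944) occupies II:10030889-10033213 on the minus strand, and its summit at 10033679 was 466 bp upstream, the farthest of the 5. This position falls inside let-268 (II:10033266-10039980), a gene on the same strand that encodes a procollagen lysyl hydroxylase and ends 52 bp before mtcu-2 begins. In all 4 let-268 transcripts the peak lay in the last intron, which spans 1680 bp, and overlapped no exon. The summit was 131 bp from the last exon of let-268 and 6301 bp from its 5' end. A summit in the body of another protein-coding gene was found at 65 of 944 promoter peaks (6.89%). Whether the 2 genes are transcribed together is not given in the files used here, so whether this peak is a start site of mtcu-2 was not tested.

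The peak of hsr-9 was the only one of the 5 with more than one gene start in its window. The gene (WBGene00002027) lies at I:9626241-9630848 on the plus strand, and the peak at 9625988-9626151 had its summit at 9626083, 158 bp upstream. The divergent gene rps-19, which encodes a protein of the small ribosomal subunit, has its 5' end 287 bp from the same summit, and 444 bp separate the genes. The hsr-9 peak is thus also a ribosomal protein promoter peak, and to which of the genes the binding belongs cannot be told apart. Of the 51 promoter peaks of ribosomal protein genes, 28 were shared by 2 or more genes, as were 224 of all 944 (23.7%).

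**Figure D1:**
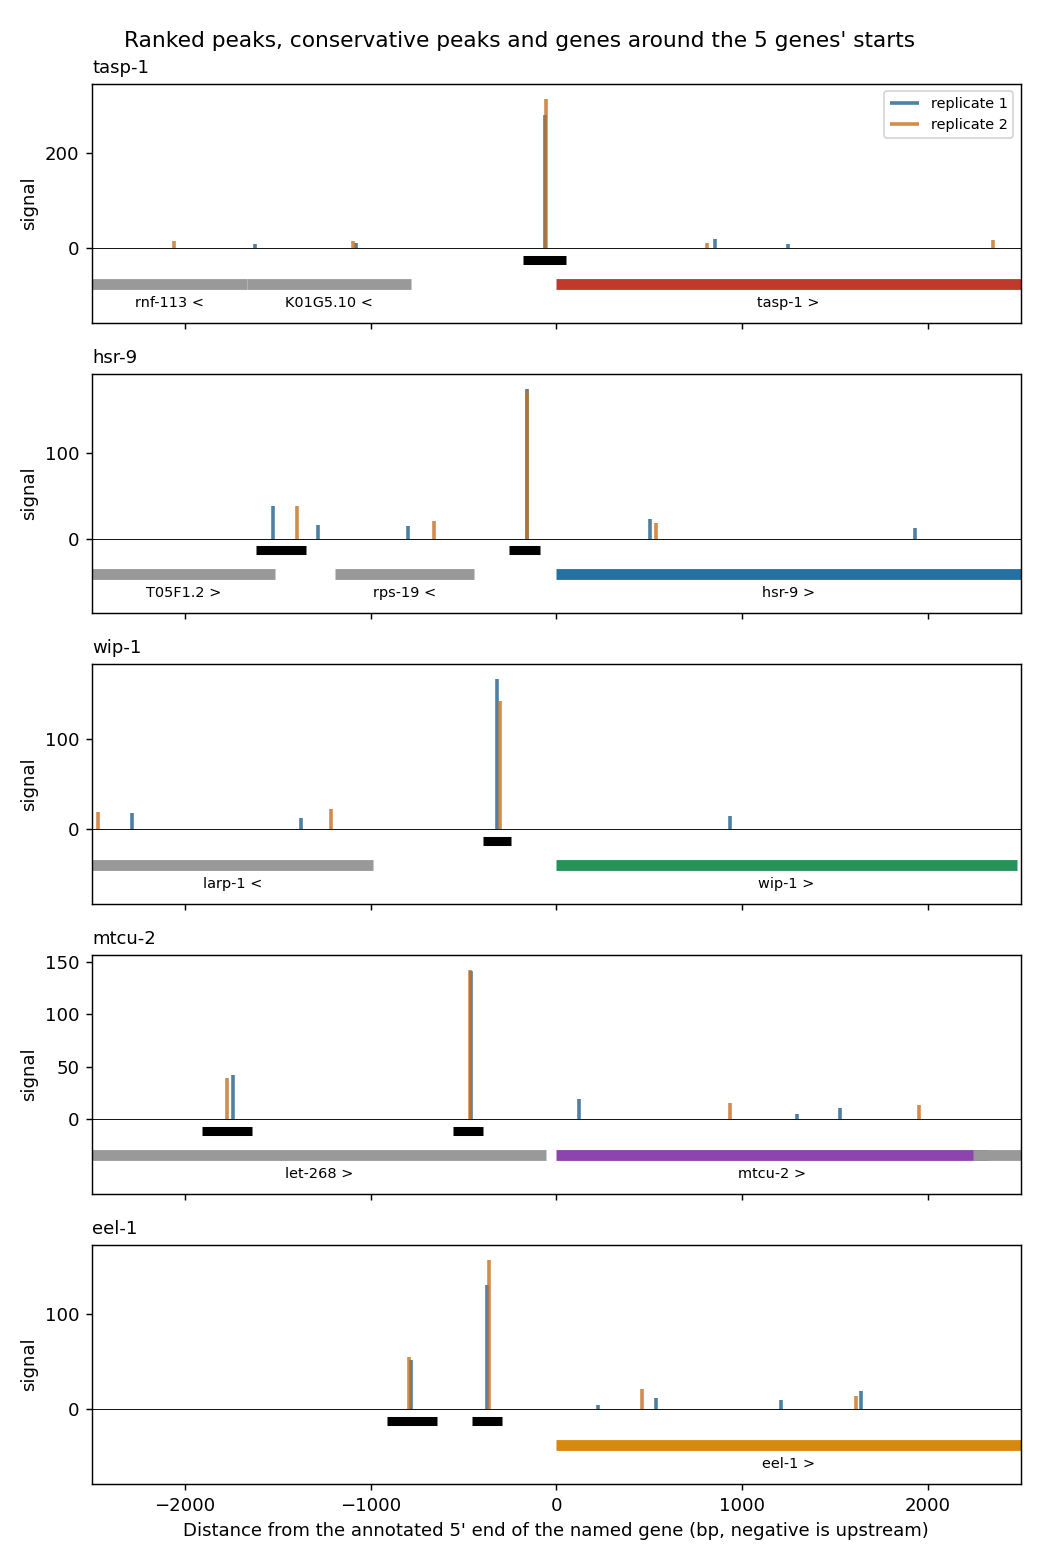
Peaks and protein-coding genes around the 5 gene starts, by distance from the 5' end in bp (x axis, transcription to the right). Vertical lines are ranked list entries at their summits with their signal in each replicate (y axis, peak caller units), black bars are peaks of the conservative list (the peaks past the reproducibility threshold for both replicates), and lower bars are genes with their direction: the summits lie from 63 bp (tasp-1) to 466 bp (mtcu-2) upstream, the hsr-9 peak stands between divergent genes, and the mtcu-2 peak lies inside let-268.

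All 5 summits were upstream of the gene, as were those of 730 of 944 promoter peaks (77.3%). 3 of the 5, at wip-1, mtcu-2 and eel-1, were more than 300 bp from the 5' end, compared with 238 of 944 (25.2%), and the median distance over all promoter peaks was 183.5 bp. None of the 5 peaks overlapped a non-coding gene in the Ensembl or the RefSeq annotation. In Ensembl 167 of 944 promoter peaks (17.7%) did, as did 3 of the 25 highest by signal (12%). With 5 peaks, 0 is near these shares. For context, 1134 of the 19973 genes (5.68%) held a summit within 500 bp of the 5' end. That the 5 genes did so is fixed by the way they were chosen, and with a window of 250 bp only tasp-1 and hsr-9 of the 5 held a summit.

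The signal is the value that the authors' peak caller gave to each peak. In the conservative list, made from both replicates, it was 589.9 at tasp-1, and this peak was second among all 944 promoter peaks. tasp-1 had a signal of 280.1 in replicate 1 and 314.1 in replicate 2 (mean 297 ± 24.1, SD, n = 2). Its summit moved by 2 bp between the replicates. It stood apart from the other 4 genes, whose replicate values lay between 130.7 and 175.1.

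hsr-9 was at place 8 of the promoter peaks with a conservative signal of 353.9, and had 175.1 in replicate 1 and 172.1 in replicate 2 (mean 173.6 ± 2.12, SD, n = 2). Its replicate summits fell on the same base. wip-1, at place 11 with a conservative signal of 313.8, had 166.3 and 142.4 (mean 154 ± 16.9, SD, n = 2), and its summits were 15 bp apart. The order of the replicates was thus turned at wip-1 relative to tasp-1, and the SD at wip-1 was the larger share of the mean.

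mtcu-2 was at place 14 with a conservative signal of 288.6 and had 141.2 and 142.9 in the replicates (mean 142 ± 1.20, SD, n = 2), with summits 6 bp apart. eel-1 was at place 15 with a conservative signal of 287.2 and had 130.7 and 156.6 (mean 143.6 ± 18.3, SD, n = 2), with summits 12 bp apart. The means of wip-1, mtcu-2 and eel-1 differed by less than the SD of wip-1 or eel-1, so the order among these 3 genes is not set beyond the spread of the replicates. hsr-9 lay above each of them in both replicates, and tasp-1 above all.

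In the replicates' own ranking of the promoter peaks, tasp-1 was second in both, hsr-9 was at 8 and 9, wip-1 at 9 and 18, mtcu-2 at 14 and 17, and eel-1 at 16 and 12. The log2 ratio of replicate 2 to replicate 1 was 0.17 at tasp-1, -0.02 at hsr-9, -0.22 at wip-1, 0.02 at mtcu-2 and 0.26 at eel-1. Over the 928 promoter peaks matched in both replicates its median was 0.11 and its SD 0.43, and all 5 genes were inside that spread. All 5 are among the 80 promoter peaks narrower than 270 bp, where the median was 0.18 and the SD 0.29. There wip-1 lay below the median by more than that SD, and the others lay within it. How signal was scaled from list to list is not stated, and these ratios can include a difference in scale. Over all 944 promoter peaks the median signal in the conservative list was 78.0, the upper quartile 105.6 and the 90th percentile 153, and the lowest of the 5 genes was above all of these.

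**Figure D2:**
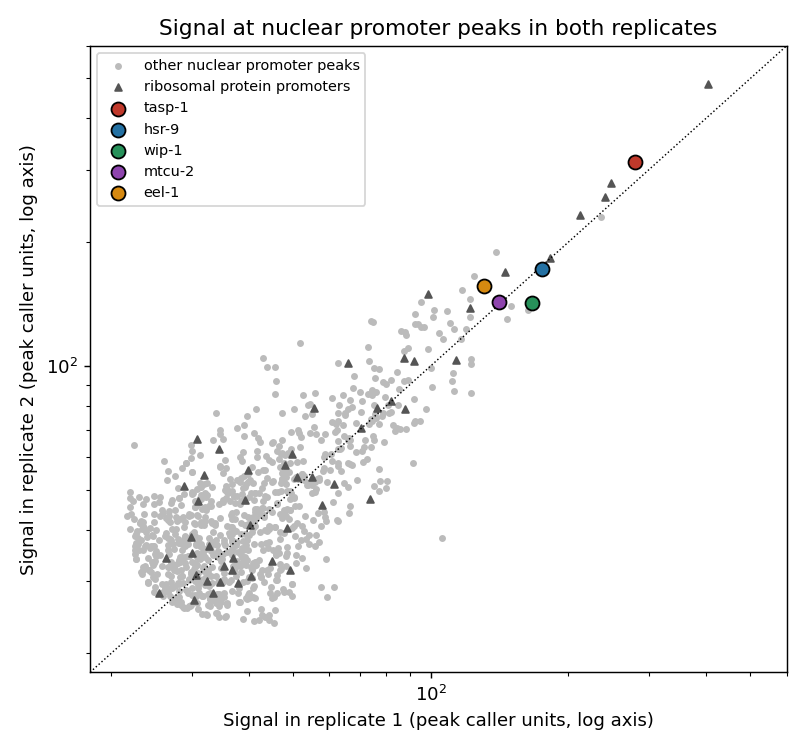
Signal of nuclear promoter peaks in replicate 1 (x axis) and replicate 2 (y axis), in peak caller units on log axes, with equality as a dotted line. Each point is a peak matched in both replicates, triangles are ribosomal protein promoters, and the 5 genes are coloured. tasp-1 (280.1 and 314.1) lies apart from the other 4 genes, which sit between 130.7 and 175.1.

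The peaks ranked directly beside these were mostly those of ribosomal and respiratory genes. tasp-1 came between rpl-3 (404.8 and 484.0 in the replicates), which belongs to the large ribosomal subunit, and the peak shared by rpl-15 and K11H12.8 (248.3 and 278.4). tasp-1 exceeded the latter in both replicates and was below rpl-3 in both. hsr-9 came between rps-1 (182.6 and 182.7) and cox-5B (139.0 and 189.8), a subunit of cytochrome c oxidase. hsr-9 was below rps-1 in both replicates, and above cox-5B in replicate 1 only.

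wip-1 came between the peak shared by rpl-7A and set-21 (145.0 and 169.1) and that of cox-5A (163.3 and 137.1), another cytochrome c oxidase subunit gene. mtcu-2 and eel-1 were next to each other. Above mtcu-2 stood the peak shared by Y55F3AR.2 and cct-8 (124.4 and 165.7), the second of which encodes a chaperonin subunit and is neither ribosomal nor respiratory. Below eel-1 stood the peak shared by atp-1 and mcrs-1 (149.5 and 139.7), the first of which encodes an ATP synthase subunit. With hsr-9 sharing its peak with rps-19, the other 4 genes are some, and not all, of those with the highest peaks outside the ribosomal and respiratory genes. The replicate values of wip-1, mtcu-2 and eel-1 overlapped in range with those of each of their neighbours.

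All 5 peaks were present in all 6 lists in which they were looked up, and each had a −log10 irreproducible discovery rate (IDR, which is small where the rank of a peak repeats between 2 peak sets) of 5 in both replicates' ranked lists. In the full ranked lists of nuclear entries, tasp-1 was at place 6 in both replicates, hsr-9 at 17 and 23, wip-1 at 19 and 42, mtcu-2 at 33 and 41, and eel-1 at 42 and 29. Of the 5 entries above tasp-1, 4 in each replicate overlapped no peak of the conservative list. Above eel-1 this held for 12 of 41 entries in replicate 1 and 11 of 28 in replicate 2. What these entries are was not tested.

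The peaks of wip-1, mtcu-2, hsr-9 and eel-1 were 151, 162, 164 and 165 bp wide, and that of tasp-1 was the widest of the 5. The widest promoter peaks were 270 bp, a width that 864 of 944 (91.5%) shared, and 80 (8.47%) were narrower. All 25 of the highest promoter peaks were narrower than 270 bp, so the narrow shape of the 5 peaks goes with their signal. Across all 944 promoter peaks, width and conservative signal had a Spearman correlation of -0.47. Within the 80 narrower peaks it was 0.79, the opposite sign. These correlations describe peaks of the same libraries, in which the width and the signal come from the same peak calls.

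Base composition was not used in choosing the genes. In the same window, 100 bp to either side of the summit, the GC share was 54.7% at tasp-1, 50.7% at wip-1, 50.2% at eel-1, 49.8% at mtcu-2 and 44.3% at hsr-9. The median over all promoter peaks was 43.3%, with quartiles of 38.7% and 48.3%. The first 4 were above the upper quartile, and hsr-9 was close to the median. In a narrower window, 50 bp to either side, where the median was 48.5%, the values were 59.4% at tasp-1, 57.4% at wip-1, 55.4% at hsr-9, 54.5% at eel-1 and 48.5% at mtcu-2. Again 4 of the 5 were above the upper quartile of 53.5%, but now mtcu-2 was the one at the median and hsr-9 was above the quartile.

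In the wider window, most of the other high peaks had a lower GC share. Of the other 20 among the 25 highest promoter peaks, 3 had a GC share above the upper quartile, and their median was 45.3% against 50.2% for the 5 genes. Of the 51 ribosomal protein promoter peaks, which include that of hsr-9, 3 were above it, with a median of 42.8%. In the narrower window this contrast was smaller. There 9 of the other 20 were above the upper quartile, with a median of 52.5% against 55.4% for the 5 genes, and 13 of the 51 ribosomal peaks were, with a median of 50.5%. Over all 944 peaks, GC share and conservative signal had a Spearman correlation of 0.19, as a description of peaks from the same libraries. The 5 windows held 17 to 20 CpG dinucleotides, with 20 at tasp-1, 18 at hsr-9 and eel-1, and 17 at wip-1 and mtcu-2. The median over promoter peaks was 12, and 130 of 944 (13.8%) had at least 17, as did 4 of the other 20 and 6 of the 51 ribosomal peaks. Since 5 genes chosen by signal are no sample of a condition, no test of these differences was made.

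**Figure D3:**
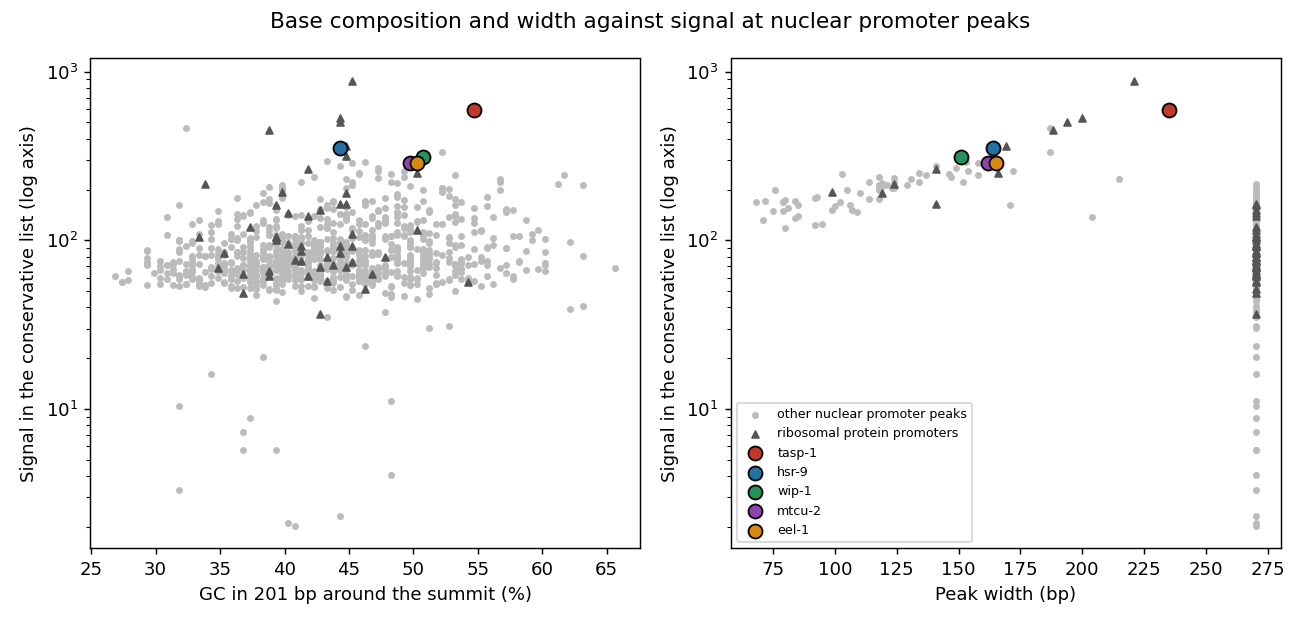
Signal of nuclear promoter peaks in the conservative list (y axis, log scale) against the GC share in the window 100 bp to either side of the summit (left, percent) and against peak width (right, bp). Each point is a peak, and the 5 genes are coloured. 4 of the 5 lie to the right of the upper quartile of GC share (48.3%), and all 5 are narrower than the 270 bp that most peaks share.

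Of 9 short motifs searched on both strands in these windows, most were at few of the 5 peaks. GGGCGG, the core of the GC box, was at tasp-1 and hsr-9 and at 12.6% of all promoter peaks. TTTTTT was at tasp-1, hsr-9 and mtcu-2 and at 53.2% of all, and GAGAGA at tasp-1 and at 28.9% of all. A match to TATAAA, the core promoter element known by its first letters, was at mtcu-2 and at 14.4% of all, on the strand opposite to the gene. TTTCAG was at mtcu-2 and eel-1 and at 22.5% of all.

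The remaining motifs were in none of the 5 windows. CACGTG, an E-box, was at 5.19% of all promoter peaks. The site of GATA factors was searched as GATAAG and was at 5.61% of all. An AT-rich word was searched as AATTAA and was at 21.5% of all. The core of the B box of transfer RNA genes was searched as GTTCGA and was at 12.4% of all. A match shows letters and not a bound site. Of all words of 6 bases, 0 were in all 5 windows and 5 were in 4 of them. The rarest of these 5 words was GAACGC, at tasp-1, wip-1, mtcu-2 and eel-1, which was in 10.4% of all promoter windows. It was singled out after the sequences had been seen. The other 4 words were in 24.0% to 60.6% of all. The 5 peaks thus had no word of this length in common.

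The surroundings of the 5 peaks also differed. tasp-1 was the only one with no other conservative peak within 5000 bp, whereas 462 of 944 promoter peaks (48.9%) had one. At eel-1 a second peak lay 407 bp further upstream (IV:3050746-3051015), in no protein-coding gene. It had a signal of 52.2 in replicate 1 and 54.8 in replicate 2 (mean 53.5 ± 1.78, SD, n = 2), and the main eel-1 peak was 2.68-fold higher (2.50-fold and 2.86-fold in the replicates). The region between eel-1 and its upstream neighbour thus held 2 peaks close together.

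At hsr-9 the nearby peak was 1325 bp away (37.7 and 38.4) and the hsr-9 peak 4.56-fold higher by the means. At mtcu-2 it was 1308 bp away in the same last intron of let-268 (42.3 and 38.9), with the mtcu-2 peak 3.50-fold higher. At wip-1 it was 4214 bp away within larp-1 (43.8 and 29.9), with the wip-1 peak 4.19-fold higher. In each case the promoter peak, by the 500 bp definition, was above its nearby peak in both replicates. This order is a description, as the genes were chosen for high signal.

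Within the genes themselves, the ranked lists held entries that were weaker than the promoter peak of the same gene. tasp-1 had 3 entries with a summit in the gene in replicate 1 and 2 in replicate 2, and its promoter signal was 14.1-fold and 17.5-fold above the highest of them. The same ratios were 7.62 and 9.36 at hsr-9, 7.27 and 9.23 at mtcu-2, and 3.85 and 4.07 at eel-1. wip-1 had 1 entry in replicate 1 (signal 14.3) and 0 in replicate 2. The eel-1 gene, the longest, held 16 and 18 entries with signals up to 38.5 in replicate 2. Their highest −log10 IDR values were 1.79 and 1.51 in the replicates' own ranked lists. The lowest value among conservative peaks, 2.00, comes from a series-level ranked list and is not the same comparison.

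Genes related to the 5 by function were then counted, using lists chosen with earlier results of these data known. Among the 10 other genes listed as subunits of COMPASS-type histone methyltransferase complexes or as homologs of taspase substrates, 5 (50%) held a summit. The share over all genes was 5.68%, and among ribosomal protein genes it was 51 of 78 (65.4%). A high share is thus not particular to this list. set-16, a methyltransferase of the MLL3/4 type, had 111.2 and 91.7 in the replicates at a peak shared with drr-2. set-2, a methyltransferase of the SET1 type, had 47.8 and 44.6. pqn-51, a homolog of a TFIIA subunit, had 33.9 and 77.0 at a peak shared with K11D12.14.

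The other COMPASS genes were dpy-30 (25.6 and 48.0) and ash-2 (28.9 and 25.9, shared with Y17G7B.20), which encode core subunits. tasp-1, which was chosen for its signal, exceeded the highest of these, set-16, in both replicates. The values of pqn-51 and dpy-30 differed most between the replicates. The list is short and was not tested as a set. In replicate 1's own thresholded list, 3 of the 10 other genes (30%) held a summit, where 3.02% of all genes did. In replicate 2's own list 4 of the 10 (40%) did, where 3.04% of all genes did. The count was 3 with a 250 bp window (3.52% of all genes) and among the conservative peaks above the median signal (3.06%). set-16 was the only one of the 10 in all of these.

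Of the 29 DNA damage response genes other than hsr-9, 3 (10.3%) held a summit, compared with 5.68% of all genes. In each replicate's own thresholded list, and among the peaks above the median signal, 0 of the 29 did. The shares of all genes there were 3.02% (replicate 1), 3.04% (replicate 2) and 3.06%. With a 1000 bp window 6 of the 29 (20.7%) did, compared with 7.72% of all genes. The 3 with the 500 bp window were brc-1, the homolog of BRCA1 (33.1 and 41.9), hpr-9 (30.1 and 38.9, shared with lron-10) and mrt-2 (26.7 and 38.3). hpr-9 and mrt-2 encode checkpoint clamp subunits. All 3 were below the hsr-9 peak, which is shared with rps-19, in both replicates. As hsr-9 was chosen for its signal, this order is a description. Of the 24 other regulators of branched actin listed with wip-1, 0 held a summit. Of the 16 other transfer RNA modification genes listed with mtcu-2, 1 did (6.25%, near the 5.68% of all genes), the dihydrouridine synthase gene dus-2 (47.0 and 52.0). In replicate 1's own list or with a 250 bp window, 0 of the 16 did, compared with 3.02% and 3.52% of all genes. In replicate 2's own list dus-2 did (6.25%, compared with 3.04% of all genes).

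Among 8 other HECT ubiquitin ligase genes, 2 (25%) held a summit, compared with 5.68% of all genes. In replicate 1's own list wwp-1 alone did, and with a 250 bp window hecw-1 alone did. Each is 12.5% of the 8, compared with 3.02% and 3.52% of all genes. In replicate 2's own list both did (25%, compared with 3.04% of all genes). wwp-1 had 116.4 and 116.5 and was at place 32 of the promoter peaks. hecw-1 had 3 summits in its window, the highest with 29.2 and 58.2 at a peak shared with elmd-1. wwp-1 was below eel-1, which was chosen for its signal, in both replicates. Of the related genes named here, wwp-1 was the highest.

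**Figure D4:**
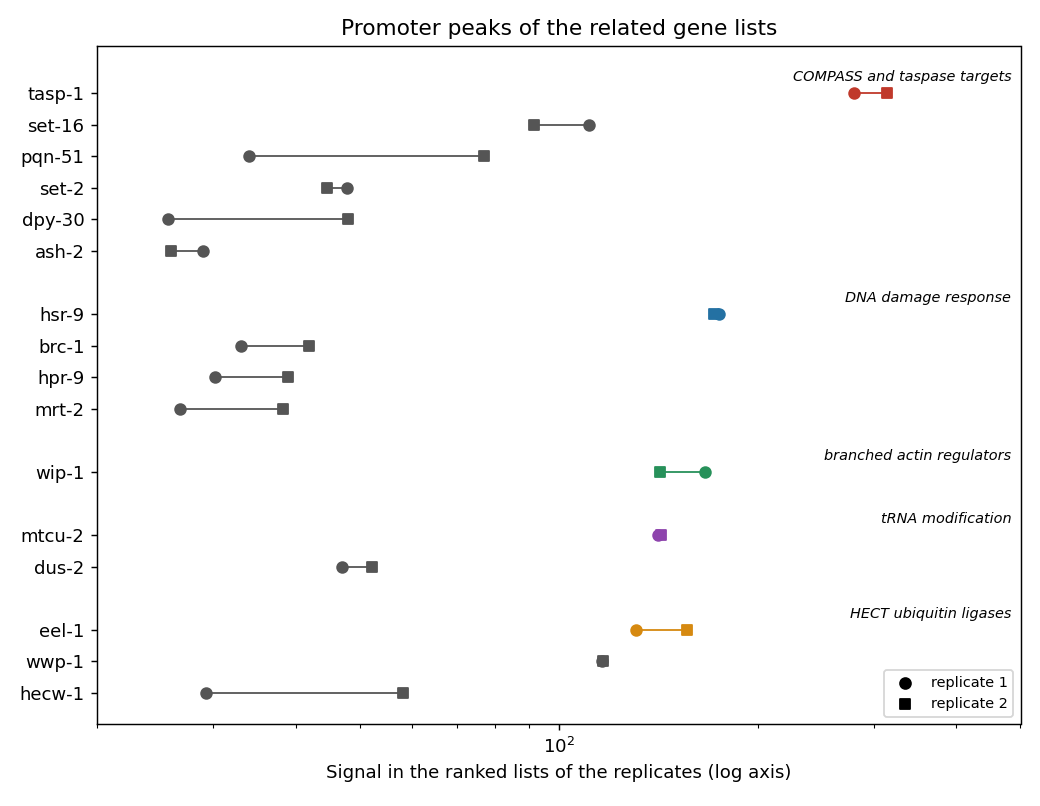
Signal in replicate 1 and replicate 2 (peak caller units, log axis) at the promoter peaks of the 5 genes and of the related genes that hold a summit, grouped by list. In each list, the gene chosen for its signal is the highest, and wwp-1 (116.4 and 116.5) and set-16 (111.2 and 91.7) are the highest of the others.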

How the data were processed

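Per the labels, the 2 samples are biological replicates of ChIP-seq from whole L4 larvae, and peaks are on ce11. The members and gene lists were chosen with earlier results of these data known.

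The authors deposited peak lists with a signal per peak, which is the value of their peak caller, a summit offset, and in the ranked lists the −log10 of the IDR. Per the file notes, each replicate has a ranked and a thresholded list from its own filtered alignments, and the series has lists from those of both. No source used here names the aligner or the peak caller. The conservative thresholded list of the series holds 2330 peaks, each of them found in a series-level ranked list, where the lowest −log10 IDR was 2.00. Replicate values are those of the ranked list entries (40062 and 44274) that share the most bases with a conservative peak, and at least 1 bp. The lists give no read count, so depth and its precision are unknown, and no interval was computed. The labels tie the replicates to different biosamples.

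Summits (start plus offset) were set against Ensembl release 115 gene models of WBcel235, and sequences were read from the RefSeq genome of that assembly. The nuclear promoter window was 500 bp. Base composition, repeats and motifs were taken in the window 100 bp to either side of the summit (50 bp as an alternative for GC). Peaks and repeats at known positions were recovered on simulated data. Named genes are the 5 genes, genes sharing their summits, the promoter peaks ranked directly beside them, and members of the 5 lists that hold a summit. Of the listed symbols, adat-1, dus-3, trm-6, trmt-1, tyw-5 and D2085.4 had no match. Python 3.11.15 was used with pandas 2.3.3, numpy 2.4.6, scipy 1.17.1 and matplotlib 3.10.9. Alternatives were other windows, RefSeq 5' ends, the other thresholded list, each replicate's own list, the highest overlapping ranked entry, and the conservative peaks above the median signal. There were no tests.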

Additional observations from a re-analysis of the deposited data

How the results depend on the processing

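No paired analysis was possible because the samples form 1 group and no test was made. With 50 bp to either side of the summit the GC share became 59.4% (tasp-1), 55.4% (hsr-9), 57.4% (wip-1), 48.5% (mtcu-2) and 54.5% (eel-1). With a window of 250 bp around the 5' end, only tasp-1 and hsr-9 of the 5 held a summit. Of all protein-coding genes 704 (3.52%) did in place of 1134 (5.68%). The lists then had 0 of 25 branched actin regulators, 0 of 17 transfer RNA modification genes and 1 of 9 HECT ligases. With 1000 bp, the DNA damage list had 7 of 30 (23.3%), hsr-9 included. The branched actin list then had 2 of 25 (8%), wip-1 included, near the 7.72% of all genes. tasp-1 and wip-1 each shared the 1000 bp window with a further gene. Using each replicate's own thresholded list in turn, the counts were 604 to 608 over all 19973 genes (3.02% to 3.04%). The DNA damage list then had 1, which was hsr-9 itself. The transfer RNA modification list had 1 to 2, of which 1 was mtcu-2. Among peaks above the median signal, 611 genes held a summit and the DNA damage list had 1, again hsr-9. Smaller or larger windows and lists hold fewer or more summits by construction, and no other cause was tested. The signal values moved by less than the spread of the replicates in all 20 recomputations, but none of these is a separate check. Leaving out 1 of 2 replicates gives this by construction. The other thresholded list and the highest overlapping entry returned the same values as the main setting. With either replicate's own summit, the distance from the 5' end changed by at most 15 bp, at wip-1. With a 250 bp window the hsr-9 summit was no longer shared with rps-19. Of the listed genes other than the 5, replicate 1's own list kept 3 of 10 COMPASS and taspase genes, 0 of 29 DNA damage genes, 0 of 16 transfer RNA modification genes and 1 of 8 HECT ligases. Replicate 2's own list kept, in the same order, 4 of 10, 0 of 29, 1 of 16 and 2 of 8. From RefSeq's 5' end the tasp-1 summit was 141 bp away. What depth limits is unknown, as no read counts are in the lists. The lack of control values and the selection of the genes by signal limit what the heights show.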
